A study of Homo sapiens with 6 samples.

Results

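The 45 genes described here encode the proteins that license and run DNA replication, and were chosen by name: origin licensing, helicase, polymerases, clamp and loader. All 45 had a row among the 23346 gene rows of the deposited table, and all 45 passed the filter of a mean of at least 0.5 RPKM, among 14776 genes tested. RPKM is the read count scaled by gene length and by library depth. All libraries were made from KhES-1 cells, a line of human embryonic stem cells, and in both groups the culture surface carried 0.5 µg of laminin fragment per square cm. One group was kept in AKIT, a growth-factor-free medium known to contain azakenpaullone, ID-8 and tacrolimus, which inhibit GSK3, DYRK kinases and calcineurin. The control group was kept in Essential 8 (E8), a defined medium that contains FGF2 and TGF-beta. The series has 3 samples per medium, of which 3 AKIT libraries and E8 replicates 1 and 2 are used here, and E8 replicate 3 was not analysed here. KhES-1 is 1 line, and the labels do not say whether replicates were separate cultures, and the p-values therefore reflect only how far these libraries spread, which may be technical.

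DNA replication in human cells starts by licensing. The origin recognition complex (ORC) binds DNA in G1, and CDC6 and CDT1 help it load rings of MCM2 to MCM7, while geminin (GMNN) holds CDT1 back until the next cycle. In S phase the kinase CDC7 with DBF4 starts the process by which CDC45 and the GINS complex join each ring to form the working helicase. Primase and polymerase alpha then lay down primers, the RFC complex loads the sliding clamp PCNA, polymerases epsilon and delta copy the strands, RPA covers single-stranded DNA, and FEN1 and LIG1 trim and seal Okazaki fragments. Many of these genes are known as targets of E2F transcription factors, and embryonic stem cells, which have a short G1, are known for abundant licensing factors.

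The libraries held 16242864 to 23263095 reads, and the members were covered by 45 reads (POLE2 in E8 replicate 1) to 10316 reads (MCM4 in AKIT replicate 2) per library. The cells carried the defining pluripotency genes in both media: POU5F1 averaged 349 ± 52.0 RPKM (SD, n = 3) in AKIT and 328 ± 21.0 (SD, n = 2) in E8, NANOG 10.5 ± 2.69 and 8.15 ± 0.235, and SOX2 254 ± 45.3 and 435 ± 21.8. Of 12 pluripotency markers 2 fell and 0 rose, or 16.7% called beside 20% of all genes. Those that fell under the test described below were SOX2 (-0.79 on the log2 scale, limma adjusted p = 0.0162) and PODXL (-0.62, 0.0162). Without AKIT replicate 2, 1 of the 12 rose and 3 fell, in a fit that called 32.2% of all genes. With replicate numbers fitted as a block, 0 of the 12 passed, in a fit that called 8.91% of all genes. Markers of other lineages were low apart from fibroblast-list genes: the summed RPKM of 7 endoderm markers was 3.40 to 7.97 in AKIT and 2.91 to 3.02 in E8, of 6 mesoderm markers 5.71 to 13.7 and 4.68 to 5.57, of 8 trophoblast and amnion markers 5.22 to 15.9 and 10.1 to 10.6, and of 6 neural markers 9.93 to 14.7 and 10.4 to 11.2. The 9 fibroblast markers summed to 51.1 to 62.3 RPKM in AKIT and 69.2 to 72.4 in E8, most of it COL1A1, with TWIST2 and FAP, like the endoderm marker ALB, at 0 in all libraries. Single markers of other lineages differed between the media under the test described below. KRT7 and TFAP2A of the trophoblast and amnion list fell (-1.28 and -1.33 on the log2 scale, limma adjusted p = 0.00399 and 0.00616). COL1A1 and PDGFRB of the fibroblast list fell (-0.51 and -1.15, 0.0314 and 0.00992), and FABP7 of the neural list rose (0.72, 0.0358). Other members of these lists went the other way without passing. HAND1 and CGA (1.103 and 0.802) and COL3A1 and LUM (1.496 and 1.434) were higher in all AKIT libraries. HES5 and DCX were lower in the AKIT mean (-0.596 and -0.152). Of the tested markers, 2 were higher in the AKIT mean and 3 lower in each of the trophoblast and fibroblast lists. In the neural list 1 was higher and 2 lower. The highest sums of the endoderm, mesoderm, trophoblast and fibroblast lists within AKIT were all in replicate 1, and the part of such cells in the results below was not tested. HAND1 counts in both the mesoderm and the trophoblast and amnion sums, at 6.31, 2.8 and 1.78 RPKM across AKIT replicates 1, 2 and 3. In bulk RNA a change in the share of cells in S phase and a change in RNA per cell cannot be told apart.

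Few of the replication genes passed the test between the media. Under limma's moderated test on log2(RPKM + 1), with Benjamini-Hochberg adjustment over all 14776 genes and a threshold of 0.05, 3 of the 45 rose in AKIT and 1 fell. MCM6, a subunit of the helicase ring, PRIM1, the catalytic subunit of primase, and POLD2, an accessory subunit of polymerase delta, rose. GINS4, a subunit of GINS, fell. These 4 are 8.89% of the members, against 20% of all genes tested; 8.22% of all genes rose and 11.7% fell. At an unadjusted p under 0.05 there were 10 of 45, or 22.2%, against 36% of all genes. All differences below subtract E8 from AKIT after taking log2(RPKM + 1), a scale on which changes of low genes come out too small, and are given ± the standard error of limma; "rose" and "fell" are used for genes past the threshold.

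The differences of the members ranged from -0.39 (GINS4) to 0.64 (PRIM1), with a median of 0.09 against -0.01 for all genes tested. The mean was higher in AKIT for 32 of the 45 (71.1%) and lower for 13, whereas 48.9% of all genes were higher. This split moved from 28 and 17 to 35 and 10 over the scalings, filters and left-out libraries that were tried, with the median of the members between 0.07 and 0.14. The AKIT libraries lay on 1 side of both E8 libraries for 21 of 45 members (46.7%), 18 above and 3 below. The same held for 54.4% of all genes, with 25.8% above and 28.6% below. For 33 members (73.3%) the unadjusted 95% interval of the difference lay wholly within 1.5-fold in either direction, as it did for 51.9% of all genes.

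**Figure D1:**
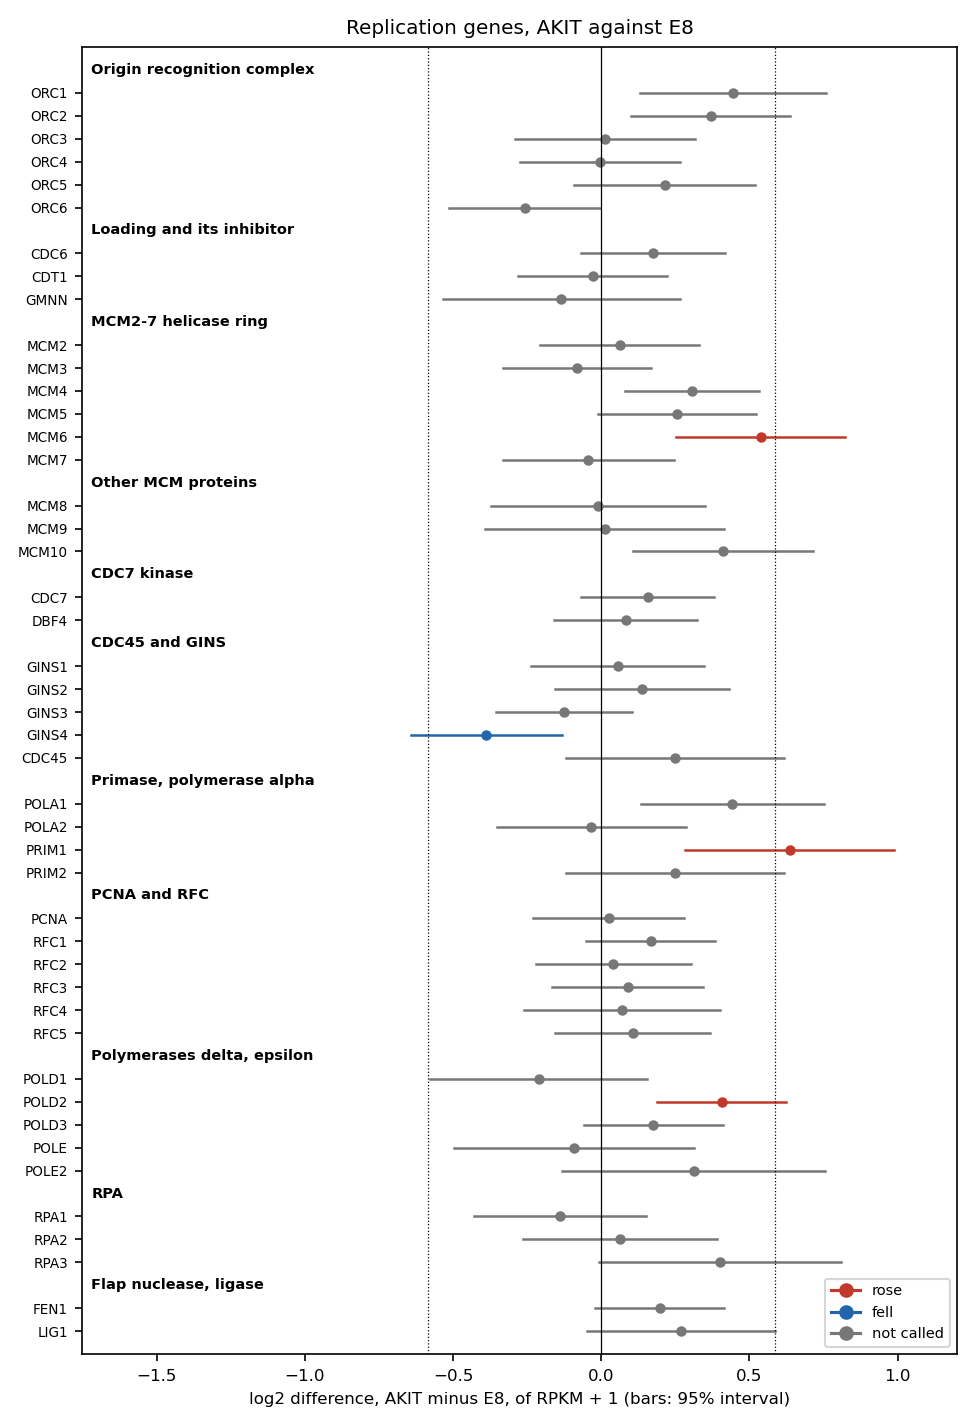
Log2 difference, AKIT minus E8, of RPKM + 1 for the 45 replication genes by role, with unadjusted 95% intervals from limma (3 AKIT and 2 E8 libraries); dotted lines mark 1.5-fold. MCM6, PRIM1 and POLD2 (red) rose, GINS4 (blue) fell, and the 41 others did not pass the threshold.

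**Figure D2:**
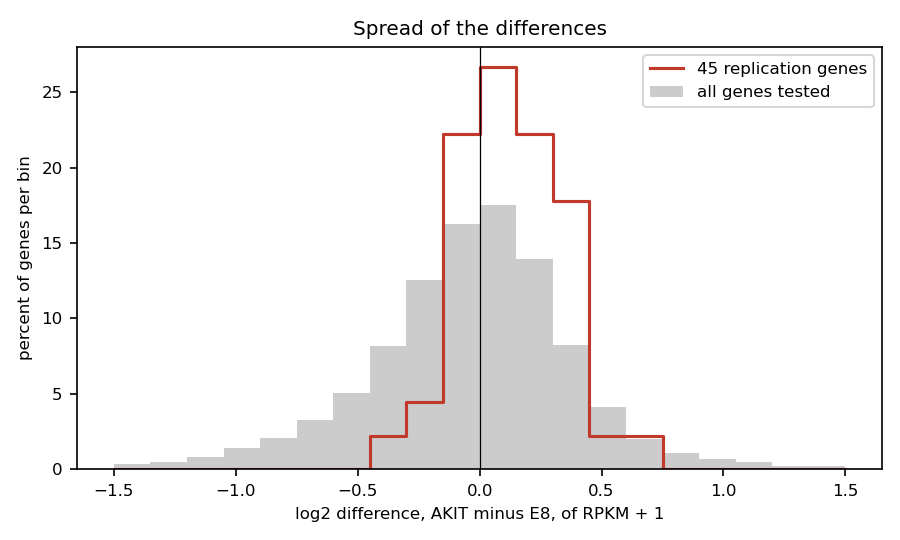
Share of genes per bin of the log2 difference, AKIT minus E8, for the 14776 genes tested (grey bars) and the 45 replication genes (red line). The replication genes fill the middle of the range, from -0.39 to 0.64; 1.26% of all genes lie beyond the axis.

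The promoters of the genes that rose are shown because E2F-type sites are the feature for which this gene set is known. RefSeq's promoter table (GRCh38.p14; 250 bases before to 50 after each annotated start, on the gene's strand) had an entry for 39 of the 45 members; MCM4, MCM5, GINS4, RPA2, RPA3 and POLD3 had none. The 250 bases before the start of the 3 genes follow, 5′ to 3′. Capitals mark matches on either strand to TTTCGCGC or TTTGGCGC (E2F-type), to TTCCCGC (a shorter E2F-type form) and to CCAAT (the NF-Y box), which can overlap.
MCM6 (chr2:135876444-135876693, minus strand): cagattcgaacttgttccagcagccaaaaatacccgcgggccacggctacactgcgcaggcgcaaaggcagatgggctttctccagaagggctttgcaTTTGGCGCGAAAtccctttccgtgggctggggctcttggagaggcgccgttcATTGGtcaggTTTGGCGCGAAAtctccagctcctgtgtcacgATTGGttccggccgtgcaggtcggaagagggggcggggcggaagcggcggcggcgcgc
PRIM1 (chr12:56752324-56752573, minus strand): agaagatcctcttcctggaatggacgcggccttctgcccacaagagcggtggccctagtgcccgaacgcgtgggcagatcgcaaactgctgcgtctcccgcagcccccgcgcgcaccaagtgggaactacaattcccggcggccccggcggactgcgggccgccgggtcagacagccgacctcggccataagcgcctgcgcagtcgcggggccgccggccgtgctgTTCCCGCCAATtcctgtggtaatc
POLD2 (chr7:44123549-44123798, minus strand): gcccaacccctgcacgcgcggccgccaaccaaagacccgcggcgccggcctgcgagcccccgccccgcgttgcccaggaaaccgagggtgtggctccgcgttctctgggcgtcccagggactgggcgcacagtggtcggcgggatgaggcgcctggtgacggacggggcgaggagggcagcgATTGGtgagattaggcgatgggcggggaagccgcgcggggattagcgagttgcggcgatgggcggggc

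These upstream windows differed from each other. The MCM6 window held the 8-base E2F-type form at 2 places, with overlapping matches on both strands at each, and 2 CCAAT boxes in reverse. The PRIM1 window held TTCCCGC running into a CCAAT box, and the POLD2 window held 1 reversed CCAAT box and neither E2F-type form. A match is a description of letters and no evidence of binding.

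The 8-base form occurred in the 300-base windows of 12 of the 39 members (30.8%), against 1.4% of the 27305 genes in the table and 1.15% of its 35116 windows. TTCCCGC occurred in 14 members (35.9%), against 7.82% of genes, and CCAAT in 23 (59%), against 39.7%. Of the 12 genes with the 8-base form, MCM6 rose and the other 11 did not pass the threshold. Their matches are printed with flanking bases. The matches are alike because the search required these letters. With MCM6 alone past the threshold, they cannot show what sets called genes apart from the others. Capitals mark the match, and positions count from the start as base 0.
MCM6, from -152: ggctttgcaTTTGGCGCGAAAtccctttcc
MCM6, from -90: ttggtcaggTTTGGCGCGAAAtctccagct
MCM2, from 2: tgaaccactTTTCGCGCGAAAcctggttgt
MCM3, from -4: gttcggaagtTTTCGCGCcggggtggag
MCM7, from -9: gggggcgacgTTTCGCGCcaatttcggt
POLA2, from -53: tggctcccggTTTCGCGCatgcgtgcac
POLA1, from -137: tcatcacaggGCGCCAAAcgcgcgtccg
POLE, from -18: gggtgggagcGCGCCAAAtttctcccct
POLE2, from -5: tgcggcggtgGCGCCAAAtcgcaaatat
GMNN, from -80: ctgggtcggtTTTGGCGCgctctcactt
CDC6, from 7: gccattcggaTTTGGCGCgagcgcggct
GINS1, from 5: gctttgttcgGCGCCAAAgcgcggagcg
MCM8, from 26: gatcactgaaGCGCCAAAaaagaattta

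Among these, MCM2 and MCM6 had overlapping matches in both orientations, and the other genes had 1 orientation. MCM6 rose by 0.54 ± 0.12, whereas MCM2 differed by 0.06 ± 0.11 (limma adjusted p = 0.734). MCM3 and MCM7, each with 1 match across or next to the start, differed by -0.08 ± 0.11 and -0.04 ± 0.12.

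Of the 6 ORC subunits, none passed the threshold in limma, with 3 at an unadjusted p under 0.05 and 1, ORC1, called by voom on the recovered reads. ORC1, the largest subunit, whose protein is known to be removed after G1, was at 19.3, 25.7 and 22.6 RPKM across AKIT replicates 1, 2 and 3, and at 15.7 and 16.7 in E8 replicates 1 and 2. The 3 AKIT libraries were above both E8 libraries, and the difference was 0.44 ± 0.13 (limma adjusted p = 0.0566). Leaving out AKIT replicate 1 or AKIT replicate 2 brought ORC1 past the threshold (limma adjusted p = 0.0345 and 0.0475, with 0.0209 to 0.307 over all alternatives). ORC2, a core subunit, was at 15.3, 15.6 and 18.3 RPKM in AKIT and 12.7 and 12.1 in E8, again without overlap (0.37 ± 0.11, limma adjusted p = 0.0616).

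ORC6, the smallest subunit, went the other way, at 31.0, 34.9 and 30.7 RPKM in AKIT and 41.3 and 36.2 in E8. Its AKIT libraries were all below E8, and the difference of -0.26 ± 0.11 did not pass (limma adjusted p = 0.134; 0.0424 without AKIT replicate 2). The remaining subunits ORC3, ORC4 and ORC5 stood at means of 5.21 to 6.53 RPKM in either medium, with differences from 0.00 to 0.21; of these ORC5 was higher in all AKIT libraries. In RPKM, a scale per gene length, the order ORC6, ORC1, ORC2 held in all 5 libraries, with the highest subunit 5.12 to 8.07 times the lowest. ORC3, ORC4 and ORC5 changed places between libraries and could not be ordered.

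The loading factors were close to equal in both media, and 0 of 3 passed in limma, with 0 at an unadjusted p under 0.05 and 0 called by voom. CDC6, the ATPase that helps ORC load MCM rings, was at 29.03, 29.8 and 32.1 RPKM in AKIT and at 25.1 and 28.5 in E8. These groups did not overlap, and the lowest AKIT library was near the higher E8 one (difference 0.18 ± 0.10, limma adjusted p = 0.263). CDT1, which carries the ring to ORC, averaged 32.8 ± 2.40 RPKM in AKIT (SD, n = 3) and 33.5 ± 2.68 in E8 (SD, n = 2). GMNN, its inhibitor, spread more widely in AKIT, at 31.2, 24.2 and 36.5 RPKM, around the E8 values of 35.0 and 31.7. The 95% intervals of the differences reached from -0.28 to 0.22 for CDT1 and from -0.53 to 0.26 for GMNN.

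The helicase ring MCM2 to MCM7 works as 1 hexamer with 1 copy of each subunit. Of its 6 genes 1 rose and 0 fell, or 16.7% called beside 20% of all genes. Whether the 6 genes differed from each other in response was not tested. MCM6 was at 30.6, 29.5 and 37.1 RPKM across AKIT replicates 1, 2 and 3, and at 22.3 and 21.5 in E8 replicates 1 and 2. All AKIT libraries were above E8, with AKIT replicate 3 the highest, and MCM6 rose by 0.54 ± 0.12 (limma adjusted p = 0.0245). The call held without any 1 AKIT library and ended with E8 replicate 1 or E8 replicate 2 left out (limma adjusted p = 0.162 and 0.196; 0.00434 to 0.196 over all alternatives). MCM6 had 1310 to 2699 reads per library, and in the GENCODE 29 annotation no other gene shares its exons.

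MCM4 was at 82.1, 90.2 and 92.1 RPKM in AKIT and 72.5 and 69.5 in E8. The groups did not overlap, and the difference of 0.31 ± 0.10 missed the threshold (limma adjusted p = 0.0649; 0.0246 to 0.382 over all alternatives). MCM5 was at 32.2, 37.8 and 39.5 RPKM in AKIT against 30.1 and 30.5 in E8, also without overlap (0.26 ± 0.11, limma adjusted p = 0.152). The AKIT and E8 values of MCM2, MCM3 and MCM7 overlapped. MCM2 averaged 57.4 ± 6.35 RPKM in AKIT and 54.7 ± 1.26 in E8 and MCM7 75.4 ± 9.23 and 77.3 ± 0.236. MCM3 was the most abundant, at 90.9, 103 and 108 RPKM in AKIT and 105 and 107 in E8.

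Within the ring, MCM3 was highest and MCM2, MCM5 and MCM6 followed in that order at the low end in all 5 libraries, while MCM4 and MCM7 exchanged second place. MCM4 was above MCM7 in the 3 AKIT libraries and below it in both E8 libraries. The highest subunit, MCM3, was 2.90 to 3.49 times the lowest, MCM6, in AKIT and 4.72 and 4.99 times in E8. This ratio rests on these 2 genes, of which MCM6 rose, and does not describe all 6 levels. Its change was not tested.

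Of the MCM proteins outside the ring, MCM10, which helps to activate the helicase, was at 11.6, 13.0 and 14.1 RPKM in AKIT and 10.4 and 8.58 in E8. The groups did not overlap (0.41 ± 0.13, limma adjusted p = 0.0662; 0.0370 to 0.416 over all alternatives). MCM8 and MCM9, which act in recombination repair, averaged 6.95 ± 1.33 and 2.99 ± 0.661 RPKM in AKIT (SD, n = 3) and 6.94 ± 0.220 and 2.94 ± 0.491 in E8 (SD, n = 2). None of these 3 genes passed in limma, 1 had an unadjusted p under 0.05, and voom called 0.

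**Figure D3:**
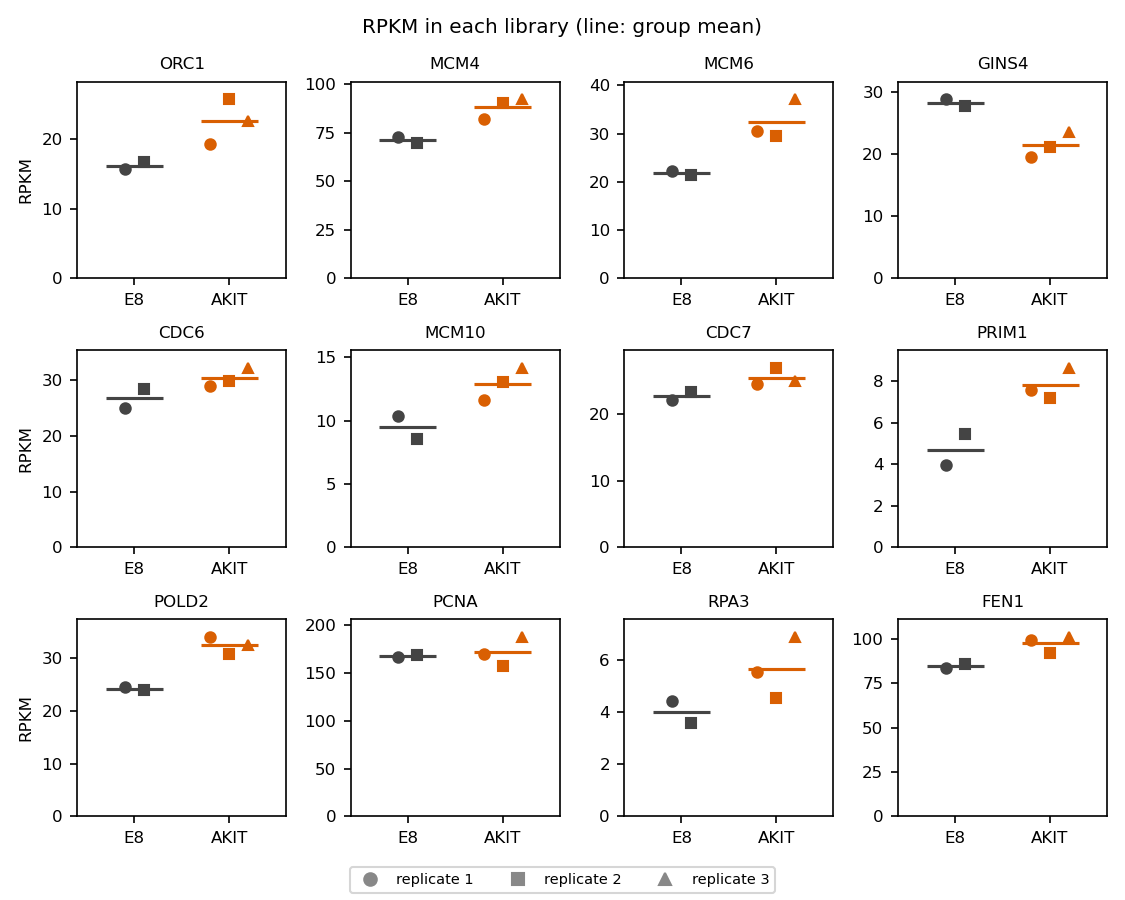
RPKM in each library for 12 of the 45 genes, with E8 in grey and AKIT in orange, marker shapes for replicate numbers, lines for group means and each axis starting at 0. MCM6, PRIM1 and POLD2 have 3 AKIT libraries above both E8 libraries and GINS4 has 3 below; PCNA overlaps.

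CDC7 and DBF4, the kinase and its activator, were 0 of 2 past the threshold in limma, with 0 at an unadjusted p under 0.05 and 0 by voom. CDC7 was at 24.4, 26.8 and 24.9 RPKM in AKIT and 22.0 and 23.3 in E8, a small separation (0.16 ± 0.09, limma adjusted p = 0.278). DBF4 averaged 16.0 ± 1.06 and 15.03 ± 0.695 RPKM, and its values overlapped.

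Of CDC45 and the 4 GINS subunits, which complete the active helicase, 1 fell and 0 rose, or 20% called beside 20% of all genes. GINS4 was at 19.6, 21.1 and 23.5 RPKM across AKIT replicates 1, 2 and 3, and at 28.7 and 27.7 in E8 replicates 1 and 2. All AKIT libraries were below both E8 libraries, and GINS4 fell by 0.39 on the log2 scale (± 0.11, limma adjusted p = 0.0462). This is the call nearest to the threshold. It ended under median-of-ratios scaling (limma adjusted p = 0.0536), without a filter (0.0576), without a trend (0.0633) and without AKIT replicate 1 (0.0941), E8 replicate 1 (0.288) or E8 replicate 2 (0.241), within a range of 0.0170 to 0.288. In GENCODE 29 antisense genes overlap 23.6% of its 5475 exonic bases, and reads on the 2 strands cannot be told apart where the use of strand is not known. The length recovered from the RPKM values was 3841 bases, and whether the counted bases include the shared ones is not known.

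The other subunits of the GINS tetramer showed no such difference past the threshold. GINS3 was at 14.7, 15.7 and 16.4 RPKM in AKIT, below 17.2 and 16.9 in E8 (-0.12 ± 0.10, limma adjusted p = 0.400). GINS1 averaged 47.8 ± 5.37 RPKM in AKIT and 45.8 ± 3.97 in E8, and GINS2 45.1 ± 5.87 and 40.6 ± 0.596, with overlapping libraries in each case. Whether GINS4 differed from the other subunits in its response was not tested. CDC45 was the lowest of the group, at 1.99, 2.50 and 2.41 RPKM in AKIT and 1.47 and 2.12 in E8, from 52 to 117 reads per library. The order GINS1, GINS2, GINS4, GINS3, CDC45 was the same in all 5 libraries.

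Primase and polymerase alpha held the largest difference of the list. PRIM1 was at 7.56, 7.20 and 8.60 RPKM across AKIT replicates 1, 2 and 3, and at 3.95 and 5.43 in E8 replicates 1 and 2. The groups did not overlap, with E8 replicate 1 the lowest library, and PRIM1 rose by 0.64 ± 0.15 (limma adjusted p = 0.0274). The call rested on 102 to 257 reads per library and ended without a filter on low values (limma adjusted p = 0.0531) and without AKIT replicate 1 (0.0621), AKIT replicate 3 (0.0783), E8 replicate 1 (0.230) or E8 replicate 2 (0.0715), within limma adjusted p from 0.0136 to 0.230. In GENCODE 29, 21.6% of its exonic bases overlap other genes, among them NACA on the same strand and HSD17B6 on the opposite strand, which leaves part of its count uncertain.

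POLA1, the catalytic subunit of polymerase alpha, was at 13.3, 13.7 and 16.9 RPKM in AKIT and at 11.0 and 9.89 in E8. Its groups did not overlap, and the difference of 0.44 ± 0.13 lay just outside the threshold (limma adjusted p = 0.0555; 0.0396 by voom; 0.0175 to 0.332 over all alternatives). PRIM2, the large primase subunit, averaged 8.89 ± 1.62 RPKM in AKIT and 7.25 ± 0.501 in E8, and POLA2, the regulatory subunit, 8.32 ± 1.19 and 8.48 ± 0.0386. Both overlapped between the media.

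PCNA, the sliding clamp, was the most abundant member, at 170, 157 and 187 RPKM in AKIT and 167 and 169 in E8. AKIT values lay on both sides of E8, and the difference was 0.02 ± 0.11 (limma adjusted p = 0.892), with a 95% interval from -0.23 to 0.28. The 5 subunits of the clamp loader RFC were all slightly higher in the mean, by 0.04 to 0.17. RFC1, the large subunit, was at 19.3, 19.6 and 20.1 RPKM in AKIT and 16.8 and 17.9 in E8, without overlap (0.17 ± 0.09, limma adjusted p = 0.238). RFC5 was also higher in all AKIT libraries (13.0 ± 1.196 against 12.0 ± 0.387 RPKM), while RFC2, RFC3 and RFC4 overlapped. Of these 6 genes 0 passed in limma, 0 had an unadjusted p under 0.05, and voom called 0, and all 6 intervals lay within 1.5-fold. The order PCNA, RFC3, RFC2, RFC1, RFC5, RFC4 held in all 5 libraries, although RFC2 and RFC3 differed by less than their spread in AKIT.

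Of the polymerase delta and epsilon subunits, 1 of 5 rose and 0 fell, or 20% called beside 20% of all genes. POLD2 was at 34.0, 30.9 and 32.5 RPKM across AKIT replicates 1, 2 and 3, and at 24.5 and 23.9 in E8 replicates 1 and 2. Both groups were tight and well apart, and POLD2 rose by 0.41 ± 0.09 (limma adjusted p = 0.0249). The call ended without AKIT replicate 1 (0.0565), AKIT replicate 3 (0.0592), E8 replicate 1 (0.191) or E8 replicate 2 (0.226), within limma adjusted p from 0.00572 to 0.226. GENCODE 29 names 1 pseudogene, POLD2P1, with which reads could be shared.

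The catalytic subunit POLD1 was at 8.82, 12.9 and 10.6 RPKM in AKIT and at 12.6 and 12.4 in E8. AKIT replicate 2 lay above both E8 libraries and the other 2 below (-0.21 ± 0.15, limma adjusted p = 0.370). POLD3 was at 13.99, 13.6 and 15.2 RPKM in AKIT, above 12.7 and 12.3 in E8, and did not pass (0.18 ± 0.10, limma adjusted p = 0.249). POLE, the catalytic subunit of polymerase epsilon, was at 8.64, 13.3 and 9.96 RPKM in AKIT and 11.0 and 11.5 in E8, with AKIT replicate 2 again the highest. Its partner POLE2 was the lowest member of all, at 1.39, 2.56 and 2.09 RPKM in AKIT and 1.31 and 1.49 in E8.

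The 3 subunits of RPA gave 0 past the threshold in limma, with 0 at an unadjusted p under 0.05 and 0 by voom. RPA3, the smallest subunit, was at 5.53, 4.53 and 6.86 RPKM in AKIT and at 4.41 and 3.59 in E8, with AKIT replicate 2 just above the higher E8 library. Its difference was 0.40 ± 0.17 (limma adjusted p = 0.146), or 0.52 without AKIT replicate 2 (0.0362). RPA1 averaged 24.1 ± 3.08 RPKM in AKIT and 26.6 ± 0.598 in E8, and RPA2 28.7 ± 4.34 and 27.3 ± 1.59, both overlapping.

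FEN1, the flap nuclease of Okazaki fragment processing, was at 99.5, 91.9 and 101 RPKM in AKIT and 83.5 and 86.0 in E8. AKIT was higher in all libraries, by 0.20 ± 0.09 (limma adjusted p = 0.174; 0.0494 without AKIT replicate 2). LIG1, the ligase that seals the fragments, was at 3.38, 4.39 and 3.70 RPKM in AKIT and 2.96 and 3.02 in E8, likewise without overlap (0.27 ± 0.13, limma adjusted p = 0.195). Neither passed in limma, 0 had an unadjusted p under 0.05, and voom called 0.

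The number of members that passed depended on which libraries entered the fit, and most of all on AKIT replicate 2 and the E8 libraries. The AKIT libraries spread more than E8, with a median SD of the members of 0.15 on the log2 scale in AKIT and 0.04 in E8, as among all genes tested (0.15 and 0.07). Without AKIT replicate 2, 9 members rose (MCM4, MCM6, ORC1, ORC2, RPA3, POLA1, PRIM1, POLD2 and FEN1) and 2 fell (ORC6 and GINS4), or 24.4% of the members beside 32.2% of all genes tested in the same fit. Without AKIT replicate 1, 2 rose (MCM6 and ORC1) and 0 fell, or 4.44% of the members beside 13.9% of all genes. Without AKIT replicate 3, MCM6 rose and GINS4 fell, again 4.44% of the members, beside 12.2% of all genes. With either E8 library left out, 0 members passed in limma, beside 2.69% and 2.66% of all genes.

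AKIT replicate 2 was low mostly among the shorter members, and the part of this in the results was not tested. It was the lowest of the 3 AKIT libraries for 14 of the 22 members shorter than the median of 3053 bases and the highest for 4, while among the 23 others it was the lowest for 5 and the highest for 8. Over all 45 members it was the lowest for 42.2% and the highest for 26.7%, beside 40.1% and 34.7% of all genes tested. GMNN (1357 bases), RPA3 (1594) and PRIM2 (2282) were lowest against the other AKIT libraries, by -0.47, -0.37 and -0.37 on the log2 scale, and POLE (7840) and MCM9 (6147) highest, by 0.48 and 0.40. Shorter genes could also be high, such as POLE2 (1945 bases) at 0.39 and ORC6 (1687) at 0.17, and longer ones low, such as RPA1 (4345) at -0.26 and POLA1 (5439) at -0.12. Across the 45 members, which share the libraries, this deviation had Pearson's r of 0.46 with log2 length and Spearman's rho of 0.44. Among the 23 members of at least the median length r was 0.19 and rho -0.002, and among the 22 shorter ones 0.33 and 0.40; across the 14776 genes r was -0.04 and rho 0.22. The difference between the media had an r of -0.08 with log2 length among the members. Removing each library's trend on length gave 6 members that rose (MCM4, MCM6, ORC1, ORC2, PRIM1 and POLD2) and 1 that fell (GINS4), an alternative chosen after seeing the data.

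**Figure D4:**
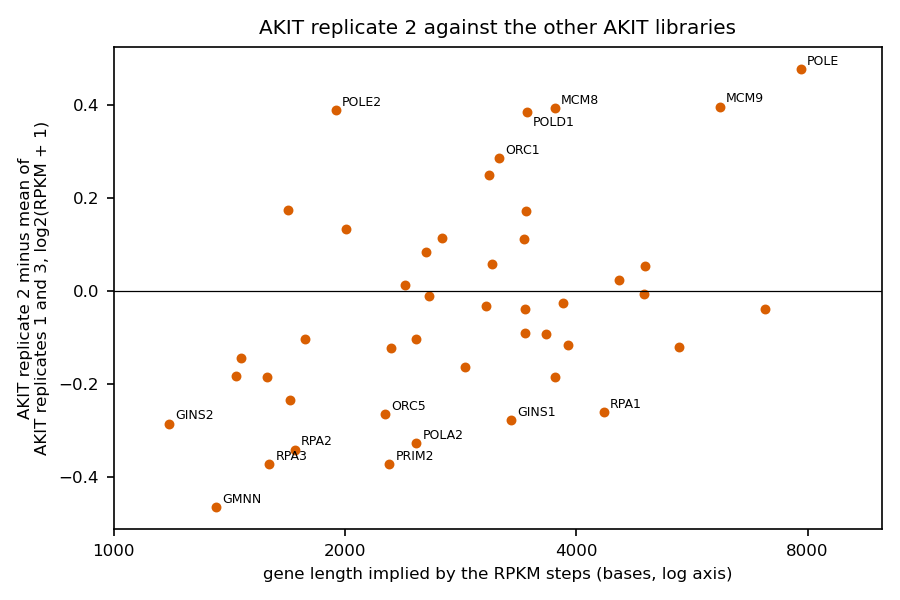
Deviation of AKIT replicate 2 from the mean of AKIT replicates 1 and 3, on log2(RPKM + 1), against gene length on a log axis, 1 point per replication gene. Of the 22 genes under the median length 16 lie below 0 and 6 above; of the 23 others 12 lie below and 11 above.

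Other genes of S phase gave a background for these values, from lists of firing and fork factors, nucleotide supply, chromatin assembly, E2F and RB, turnover and checkpoint, and mitosis. Of 29 tested firing and fork factors, 3 fell and 2 rose, or 17.2% called beside 20% of all genes, with a median of 0.00. KIAA0101 (PCLAF), a small protein that binds PCNA, had the largest change, falling in every AKIT library: 11.4, 10.8 and 11.1 RPKM in AKIT against 24.6 and 22.6 in E8. Its difference was -1.02 ± 0.10 (limma adjusted p = 0.00171), and it passed under all alternatives, with limma adjusted p from 0.00028 to 0.0389. PCNA itself, as given above, differed by 0.02.

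POLD4, the smallest subunit of polymerase delta, fell from 22.9 ± 2.80 RPKM in E8 to 14.2 ± 1.97 in AKIT (-0.66 ± 0.14, limma adjusted p = 0.0223). POLD2 of the same enzyme rose, and whether POLD4 and POLD2 differed from each other in response was not tested. FAM111A, a protease that acts at forks, fell from 12.4 ± 0.428 to 8.12 ± 1.07 RPKM. WDHD1 and LRWD1 rose and are named only after a look at their values: WDHD1 links the helicase to polymerase alpha (0.40 ± 0.11, limma adjusted p = 0.0406) and LRWD1 binds ORC (0.39 ± 0.11, 0.0448). Both calls also ended without a filter (0.0517 and 0.0647 by limma, adjusted), that of WDHD1 without a trend (0.0553), and that of LRWD1 by voom (0.118) and with the length trend removed (0.0764). Without AKIT replicate 1 or AKIT replicate 3, 0 of this list rose and 2 and 3 fell; without either E8 library 1 fell and 0 rose.

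Of 12 genes of nucleotide supply 1 fell, or 8.33% beside 20% of all genes called. It was TK1, thymidine kinase, from 58.9 ± 0.107 to 42.8 ± 5.42 RPKM (-0.46 ± 0.12, limma adjusted p = 0.0391). That call ended without a filter (limma adjusted p = 0.0571), without a trend (0.0545), without AKIT replicate 1 (0.0878) and without either E8 library. Without AKIT replicate 2 the list had 4 that rose and 2 that fell, in a fit that called 32.2% of all genes. Of 9 chromatin assembly genes 0 passed in limma, with 3 at an unadjusted p under 0.05 and 0 called by voom. The histone chaperone NASP was at 171 ± 9.97 RPKM in AKIT and 211 ± 7.80 in E8 (limma adjusted p = 0.0741) and the helicase HELLS at 20.6 ± 3.14 and 15.4 ± 0.559 (0.0886). Of 13 E2F and RB genes 0 passed in limma, with 1 at an unadjusted p under 0.05 and 0 called by voom. E2F3 was at 30.8 ± 0.894 and 25.5 ± 1.04 RPKM (limma adjusted p = 0.0846) and RB1 at 6.64 ± 1.18 and 5.08 ± 0.00267 (0.184).

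Of 17 genes of turnover and checkpoint 1 rose, or 5.88% beside 20% of all genes called. SKP2, the ubiquitin ligase subunit that targets CDT1 and the CDK inhibitor p27, was at 28.8, 22.5 and 26.2 RPKM in AKIT and at 15.3 and 14.4 in E8. All AKIT libraries were well above E8 (0.75 ± 0.12, limma adjusted p = 0.00890). With E8 replicate 1 left out SKP2 no longer passed (0.0827), nor with E8 replicate 2 left out (0.104). CDT1, its substrate, had overlapping values at the RNA level.

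Of 20 mitotic genes 5 fell and 0 rose. This is 25% called, beside 20% of all genes called in either direction and 11.7% of all genes that fell, with a median of -0.17 against 0.09 for the replication genes; the difference between the 2 lists was not tested. PLK1, a mitotic kinase, fell from 67.9 ± 3.51 RPKM in E8 to 47.5 ± 4.02 in AKIT (-0.51 ± 0.10, limma adjusted p = 0.0187). NUSAP1, a spindle protein, fell from 39.7 ± 1.59 to 28.7 ± 1.37 and BUB1B, of the spindle checkpoint, from 33.6 ± 0.626 to 24.7 ± 1.77 RPKM. AURKA and CDK1, named after their values were seen, fell with limma adjusted p of 0.0437 and 0.0498. The count was 4 with either other pseudocount, 3 under median-of-ratios scaling, without a filter and without a trend, 2 without AKIT replicate 1, 3 without AKIT replicate 3, and 0 without either E8 library.

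**Figure D5:**
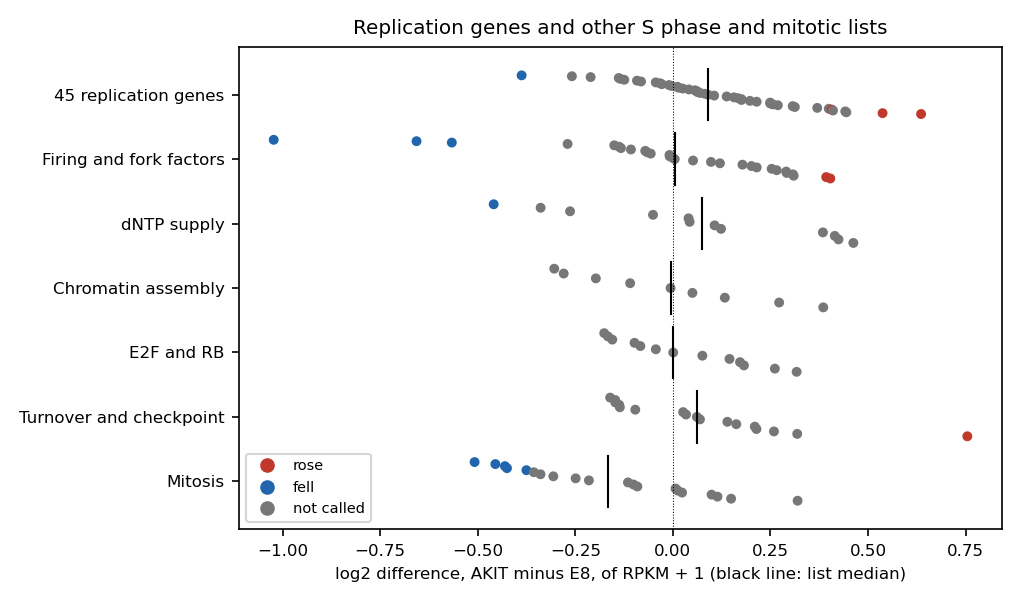
Log2 difference, AKIT minus E8, of RPKM + 1 for each tested gene of the 45 replication genes and of 6 further lists, with black lines for list medians and colours for genes that rose, fell or were not called. The mitotic list has its median at -0.17 and 5 genes that fell; KIAA0101 lies farthest left, at -1.02.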

How the data were processed

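Total RNA of KhES-1 cells was sequenced, per the labels' protocols, and the deposited table gives RPKM by gene symbol, made by the authors; the submitters' processing notes name hg19 and GRCh37. Which aligner, counter and annotation were used, and whether strand was, is not stated in the labels or the table. Columns were matched to samples by title. The members and lists were chosen with earlier results of these data known.

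For 100% of 19892 genes above 0, a length was found at which all RPKM values were whole reads (tolerance 0.02 reads), which gave reads and gene lengths. The shortest such length was taken. This share is therefore a weak check for genes with few reads or with libraries at 0, whose reads and lengths may be fractions of the true ones. Log2(RPKM + 1) values were tested with limma 3.58.1 in R 4.3.3, with its trend option, after dropping genes whose mean was below 0.5 RPKM; tests were two-sided and had no block. The procedure was tested on simulated data, with a dispersion of 0.01. Of 67 genes set to differ by 1.5-fold it called 17 (25.4%). It called 59 of 67 (88.1%) at 2-fold and 66 of 66 at 4-fold. Beside these 17, 59 and 66 true calls, 28 calls among the 14795 genes tested there were false. That is a larger share of the calls than the adjusted threshold aims at. In the real libraries the median SD of all genes tested was 0.15 in AKIT and 0.07 in E8 on the log2 scale. Whether the simulated shares hold under such unequal spread was not tested.

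Values per library are given for each called member and, in a role group without one, for the member with the smallest p; further members were added after their values were seen. From each other list up to 3 called genes by size, or the 2 with the smallest p where none was called, are named, and POU5F1, SOX2 and NANOG check the cell type. Gene overlaps are from GENCODE 29 and promoters from RefSeq (both GRCh38).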

Additional observations from a re-analysis of the deposited data

How the results depend on the processing

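The 3 members that rose and 1 that fell stayed at those counts with pseudocounts of 0.1 and 0.5 and with a minimum mean of 2 RPKM, which named the same 4 genes. The number that rose was 7 under median-of-ratios scaling, 5 under quantile normalization, 2 without a filter, 9 with array weights, 5 by voom on recovered reads, 0 with the replicate block and 6 with the length trend removed (added after seeing the data). The number that fell was 0 without a filter, under median-of-ratios scaling, without a trend and with the replicate block. Leaving out each library gave 0 to 9 that rose and 0 to 2 that fell. No called member reversed under these settings. Tests with edgeR and DESeq2 were planned and not run, because the deposited unit is RPKM. Over all genes tested, array weights gave 2269 that rose and 2740 that fell, against 1214 and 1736; the replicate block gave 492 and 824; leaving out each library gave 142 to 2132 and 250 to 2619. With 1 E8 library, that library is assumed to vary like the AKIT group.

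The labels do not say whether replicate numbers pair the samples. Deviations of AKIT and E8 libraries with the same number correlated at -0.001 and 0.025 over genes. With 2 E8 libraries the E8 deviations are mirror images of each other, so this check cannot decide whether samples were paired. AKIT replicate 3 has no E8 partner here. The replicate block has fewer residual degrees of freedom, and AKIT replicate 3, alone in its block, does not enter the difference between the media. The differences of MCM6, PRIM1, POLD2 and GINS4 were therefore those of the fit without AKIT replicate 3, at 0.44, 0.57, 0.41 and -0.46. With the block their limma adjusted p was 0.0774, 0.0983, 0.0915 and 0.0793. Under the block 1 mitotic gene fell, 2 firing and fork factors fell and 0 rose, and 0 genes of nucleotide supply passed, TK1 included (limma adjusted p = 0.0510). For the changes without a stated reason the cause was not tested. The 2 E8 libraries and, for PRIM1, RPA3, CDC45 and POLE2, fewer than 300 reads per library limit what can be seen.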
